A study of Homo sapiens with 6 samples.

Results

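The matrix metalloproteinases (MMPs) and the plasminogen activator system are the secreted and membrane-bound proteases with which keratinocytes open the pericellular matrix at a wound edge. The 9 genes described here, of 21475 genes in the tables, were chosen by symbol: *MMP1*, *MMP3*, *MMP9*, *MMP10*, *MMP13*, *MMP14*, *PLAU*, *PLAUR* and *PLAT*. All 9 were found in the tables. RNA came from 3 WT and 3 *FGFR2* KO lines of HaCaT, a spontaneously immortalized human keratinocyte line, with 1 library per line. The KO lines were made by cutting *FGFR2*, which encodes the epithelial receptor for FGF7 and FGF10, in an exon with Cas9 and a guide RNA, and each of them is a single clone, so that an effect of the knockout cannot be told apart from differences between clones. All lines were grown in DMEM with fetal bovine serum, and no cytokine or nucleic acid was added before harvest. The study describes the sequenced lines as clonally expanded, but it also counts the original cell population, from which the KO lines were made, among its WT lines. Which of its numbered WT lines stands behind each replicate was not used here. The labels do not settle whether that population is among the sequenced lines.

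As background, MMPs are made as inactive proenzymes. The collagenases MMP1 and MMP13 cut fibrillar collagen, the stromelysins MMP3 and MMP10 cut proteoglycans and other matrix proteins and activate other MMPs, the gelatinase MMP9 cuts denatured collagen and collagen IV, and MMP14 sits in the membrane and activates pro-MMP2. The plasminogen activators uPA (*PLAU*) and tPA (*PLAT*) turn plasminogen into plasmin, which itself activates several proenzymes, and the uPA receptor (*PLAUR*) holds uPA at the cell surface. Many of these genes have binding sites for AP-1, the dimers of FOS and JUN proteins, and for ETS factors in their promoters.

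RefSeq promoter windows (GRCh38.p14) were at hand for 4 of the 9 genes, *MMP10*, *MMP14*, *PLAU* and *PLAUR*, and the 250 bases before each start were searched for the AP-1 motif TGAGTCA or TGACTCA, for the ETS motif CAGGAA or TTCCTG (its complement), and for TATAAA on the sense strand. Of 35116 such windows of all genes, 4.2% held the AP-1 motif, 24.1% the ETS motif and 6.8% TATAAA. The *MMP10* window (chr11:102780629-102780878, minus strand) is shown whole, because *MMP10* lies beside *MMP1* in the gene cluster described below and the window lies outside the annotated exons of the gene. Capitals mark, in order, the ETS motif, 182 bases before the start, and TATAAA, 31 bases before it.
MMP10 promoter: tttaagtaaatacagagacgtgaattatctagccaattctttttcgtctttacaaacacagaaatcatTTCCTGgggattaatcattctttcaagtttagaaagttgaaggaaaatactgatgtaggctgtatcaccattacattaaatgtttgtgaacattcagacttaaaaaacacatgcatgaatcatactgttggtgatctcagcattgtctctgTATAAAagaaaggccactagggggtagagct
The *PLAUR* window was the one of the 5 windows (*PLAU* has 2 starts) that held the AP-1 motif. The motif lies 186 bases before the RefSeq start, in a stretch that GENCODE places in an exon of the longer transcript PLAUR-201, and is shown in capitals with 11 bases on each side (chr19:43670338-43670366, minus strand).
PLAUR AP-1 motif: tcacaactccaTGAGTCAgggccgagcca
The ETS motif was also found 14 bases before the *PLAUR* start and 84 bases before the *MMP14* start. Neither *PLAU* window held any of the 3 motifs. Both *PLAU* windows overlap annotated exons of the gene (transcripts PLAU-205 and PLAU-202), and the *MMP14* window overlaps exons of *MMP14*. Only exact matches to these letters were counted, so that variants of a motif were not searched for in any window. Sequence further than 250 bases before a start was not searched, so a gene without a motif here may have one elsewhere.

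The level of each gene is given as FPKM, the number of fragments scaled to transcript length and library depth, so that genes of different length can be set side by side. Depth was estimated from the steps between low values as 67800000 to 81240000 fragments in the WT and 71460000 to 88140000 fragments in the KO libraries. The share of mitochondrial genes in the summed FPKM was 21.5% to 27.6% in WT lines, and for KO replicates 1, 2 and 3 it was 15.8%, 23.7% and 11.9%. *FGFR2* itself was at 15.0 to 39.8 FPKM in WT and 2.26 to 4.31 FPKM in KO libraries. All 8 keratinocyte markers were present, and their summed level was 11074 to 18079.1 FPKM in WT and 14752.4 to 26837.1 FPKM in KO libraries. Of the markers of other cell types, the 7 fibroblast genes summed to 7.99 to 33.2 FPKM in WT and 6.92 to 12.6 FPKM in KO, the 4 endothelial genes to 18.2 to 27.2 and 5.82 to 17.5 FPKM, the 7 leukocyte genes to 12.8 to 23.4 and 5.32 to 12 FPKM, and the 4 melanocyte genes to 0.881 to 2.44 and 0.708 to 1.07 FPKM. None of the marker genes was at 0 in all 6 libraries, and 4 of 7 fibroblast, 2 of 7 leukocyte, 3 of 4 melanocyte and 1 of 4 endothelial markers stayed under 0.1 FPKM in each of them. The sums were mostly carried by *COL1A1* (6.82 to 16.7 FPKM over the 6 libraries) with *DCN* in WT replicate 2, by *CD68* (4.41 to 20.4 FPKM), by *PMEL* (0.697 to 2.43 FPKM) and by *VWF* (5.66 to 27.1 FPKM).

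The 9 genes spanned a wide range of levels, and the order of the 3 most abundant was the same in each of the 6 libraries. *MMP14* (on chromosome 14 from 22836560 to 22849041, GRCh38) came first with a mean of 164.3 FPKM over the 6 libraries, followed by *PLAU* (chromosome 10, 73909177 to 73917496) with 43.8 FPKM and *PLAUR* (chromosome 19, 43646095 to 43670547) with 9.80 FPKM. *MMP13* (chromosome 11, 102942995 to 102955732) had a mean of 3.17 FPKM and *MMP1* (chromosome 11, 102789401 to 102798160) of 2.11 FPKM. *PLAT* (chromosome 8, 42174718 to 42207709), *MMP9* (chromosome 20, 46008908 to 46016561), *MMP10* (chromosome 11, 102770502 to 102780628) and *MMP3* (chromosome 11, 102835801 to 102843609) followed with 0.873, 0.340, 0.317 and 0.0246 FPKM. The ranges of *MMP13* and *MMP1* overlapped, as did those of *PLAT*, *MMP9* and *MMP10*, so that the order of these neighbours is not fixed by the data. *MMP14* made up 92.0% to 98.4% of the summed FPKM of the 6 MMP genes in each library, and *PLAU* made up 96.2% to 99.7% of the sum of both activators.

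**Figure D1:**
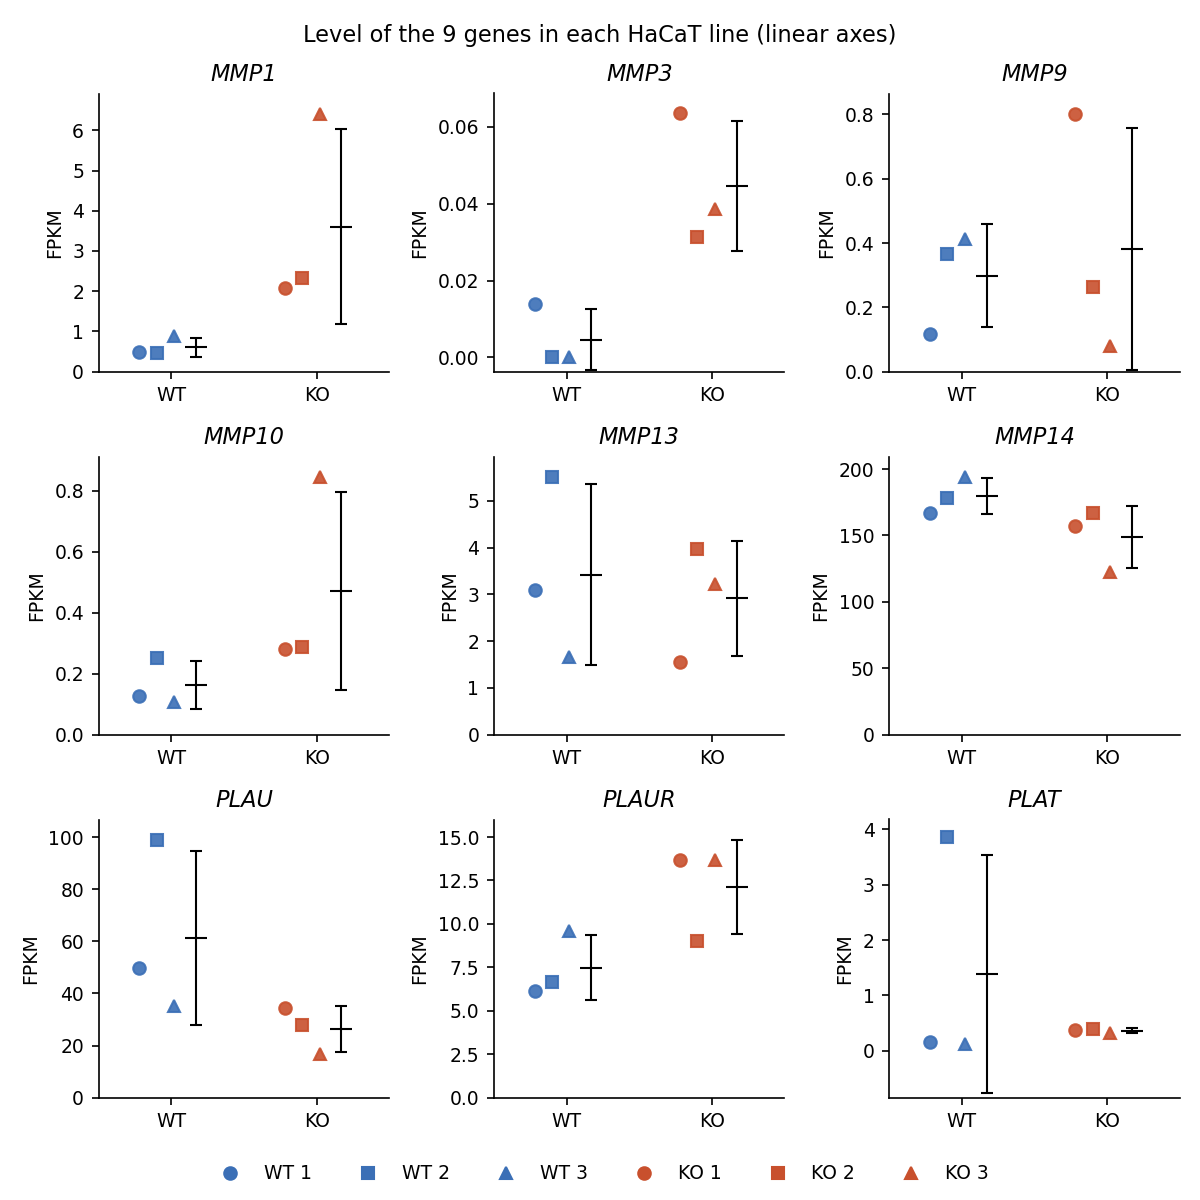
FPKM of each of the 9 genes (vertical axes, linear) in the 3 WT (blue) and 3 *FGFR2* KO lines (red). Each symbol is 1 library, its shape the replicate number (the labels give no pairing), and black bars show the mean ± SD (n = 3). KO values lie above all WT values for *MMP1*, *MMP3* and *MMP10* and below them for *MMP14* and *PLAU*, while 1 WT library sets the *PLAT* mean.

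To ask whether loss of *FGFR2* changed these levels, KO and WT libraries were compared with limma on log2(FPKM + 0.5) for the 12241 genes whose mean over the libraries reached 0.5 FPKM. Of the 9 genes, 6 passed this filter (*MMP1*, *MMP13*, *MMP14*, *PLAU*, *PLAUR* and *PLAT*), and *PLAT* passed it only through WT replicate 2. The call needed a Benjamini-Hochberg adjusted p no higher than 0.05 and a log2 fold change of 0.5 or more in size. None of the 6 genes was called, and limma called 0 of the 12241 tested genes, a background of 0%. The knocked-out gene *FGFR2* was not called either, with a log2 fold change of -2.73 and adjusted p = 0.261 in limma. No tested gene had a smaller adjusted p, so the lack of a call does not show that a gene was unchanged. The study, which used DESeq2, did report differentially expressed genes between these lines. With the libraries weighted by quality, a fit dominated by WT replicate 1, *MMP1* and *PLAUR* were called, along with 11.4% of all tested genes. Before adjustment, at p up to 0.05 with the same minimum fold change, limma had *MMP1* and *PLAUR* higher and *PLAU* lower in KO, against 10.2% of all tested genes higher and 2.33% lower. KO values lay above all WT values in 1 of the 6 (*MMP1*), where 18.3% of all tested genes did so, and below all WT values in 2 (*MMP14* and *PLAU*), where the background was 5.77%. The median log2 fold change was -0.22 over the 6 genes (-0.15 without *PLAT*) and 0.09 over all tested genes. With 3 libraries against 3, an exact permutation test of a single gene cannot give a two-sided p under 0.1, which is also its value for each gene whose groups do not overlap. The pseudocount of 0.5 is close to the level of the low genes, so their log2 fold changes depend on it. With a pseudocount of 0.1, that of *MMP1* was 2.25 in place of 1.76, and that of *PLAT* was -0.40 in place of -0.49.

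Among the collagenases, *MMP1* had the largest difference of the 6 tested genes and *MMP13* the smallest. *MMP1* was at 0.493, 0.452 and 0.881 FPKM in WT replicates 1, 2 and 3, and at 2.09, 2.33 and 6.40 FPKM in KO replicates 1, 2 and 3. All KO libraries were above all WT libraries, and KO replicate 3 was far above the other 2. The mean went from 0.609 ± 0.237 FPKM in WT to 3.61 ± 2.42 FPKM in KO (SD, n = 3 each), 5.93 times as high, and the difference of the means was larger than the SD of either group. In bulk RNA, a change in the share of cells that express a gene and a change in its level per cell cannot be told apart. The log2 fold change was 1.76 (standard error 0.40, 95% interval 0.83 to 2.68, adjusted p = 0.261 in limma). Without KO replicate 3, which also had the lowest share of mitochondrial FPKM, it was 1.31, and with the libraries scaled to the sum of nuclear genes it was 1.70.

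*MMP13* was at 3.10, 5.51 and 1.66 FPKM in the WT and at 1.56, 3.96 and 3.23 FPKM in the KO replicates. The groups overlapped throughout, with WT replicate 2 highest and KO replicate 1 lowest of the 6 libraries. The log2 fold change was -0.15, with a 95% interval from -1.15 to 0.85 (adjusted p = 0.877 in limma), so that sizeable differences in either direction lie within it. Its sign turned to 0.22 without WT replicate 2 and to 0.18 without KO replicate 1. The order of both collagenase genes differed between the lines: *MMP13* was above *MMP1* in each WT library, and below it in KO replicates 1 and 3. No test was run between different genes.

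*MMP14*, the membrane-bound activator of pro-MMP2, was at 167.0, 178.3 and 193.9 FPKM in the WT and at 157.4, 166.7 and 122.5 FPKM in the KO replicates. The groups did not overlap, but KO replicate 2 and WT replicate 1 were almost level, and only KO replicate 3 stood clearly below the rest. The KO mean of 148.9 ± 23.3 FPKM was 82.8% of the WT mean of 179.7 ± 13.5 FPKM (SD, n = 3 each), and the log2 fold change of -0.28 had a 95% interval that included 0 (-0.65 to 0.09, adjusted p = 0.396 in limma). Without KO replicate 3 the log2 fold change was -0.15, and with TPM scaling the groups overlapped. Its partner *MMP2*, the other gelatinase, was at 56.8 to 89.5 FPKM in WT and at 69.6, 131.1 and 121.4 FPKM in the KO replicates, and its log2 fold change was 0.59 (adjusted p = 0.321 in limma).

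The other 3 MMP genes were under the filter, and their values rest on few fragments, which were rebuilt from FPKM, depth and the mean transcript length. *MMP10* was at 0.126, 0.252 and 0.107 FPKM in the WT replicates, or 12, 20 and 9 fragments. It was at 0.281, 0.287 and 0.846 FPKM in the KO replicates, or 29, 24 and 86 fragments. All KO values were above all WT values, although KO replicates 1 and 2 were only just above WT replicate 2, and KO replicate 3 was highest, as for *MMP1*. Summed over lines and corrected for depth, *MMP10* had 3.03 times as many fragments in KO (exact 95% interval 2.13 to 4.41, which covers counting error only and not differences between lines). *MMP3* had 1, 0 and 0 fragments in the WT and 5, 2 and 3 fragments in the KO replicates, a ratio of 8.95 with an interval from 1.27 to 388. A count of 0 in WT replicate 2 allows up to 0.0496 FPKM (3 fragments), which lies above 2 of the 3 KO values, so that a difference in *MMP3* was not detectable from line to line at this depth. Of all 18570 genes with a value above 0 in any library, 13.6% had all KO values above all WT values, as *MMP1*, *MMP3* and *MMP10* did. *MMP3* and *MMP10* are close paralogs, and a pseudoaligner shares out any reads that fit both. Their rebuilt fragments lay at most 0.0 (*MMP3*) and 0.07 (*MMP10*) from whole numbers, and sharing between them was not tested.

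*MMP9* was at 0.116, 0.366 and 0.413 FPKM in the WT and at 0.801, 0.263 and 0.0788 FPKM in the KO replicates, or 22, 58 and 69 against 165, 44 and 16 fragments. The KO lines held both the highest and the lowest value of the 6, and the means of 0.298 ± 0.160 and 0.381 ± 0.375 FPKM differed by less than the SD of either group. *LCN2*, whose product lipocalin 2 binds MMP9, was highest in WT replicate 2 (204.1 FPKM, against 20.4 to 52.6 FPKM in the other 5 libraries).

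In the plasminogen activator system, the uPA gene was lower and its receptor gene higher in the KO means, neither past the adjusted threshold. *PLAU*, which encodes uPA, was at 49.7, 98.8 and 35.1 FPKM in the WT replicates and at 34.6, 27.8 and 16.7 FPKM in the KO replicates. All KO values were below all WT values, but by little between KO replicate 1 and WT replicate 3, and WT replicate 2 was far above every other library. The KO mean of 26.4 ± 9.0 FPKM was 43.1% of the WT mean of 61.2 ± 33.4 FPKM (SD, n = 3 each). The log2 fold change was -1.13 (standard error 0.40, 95% interval -2.07 to -0.19, adjusted p = 0.261 in limma). Without WT replicate 2 it was -0.72. *PLAU* lies on chromosome 10, whose genes had a median of -0.33 relative to all genes in KO replicate 1 (log2 deviation from the mean of the 6 libraries) and of 0.25 in WT replicate 2. After chromosome medians were subtracted library by library, *PLAU* had a log2 fold change of -0.97 and its groups overlapped.

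*PLAUR*, the uPA receptor, was at 6.12, 6.68 and 9.62 FPKM in the WT and at 13.7, 9.02 and 13.7 FPKM in the KO replicates. KO replicates 1 and 3 were above all WT libraries, and KO replicate 2 lay below WT replicate 3. The mean was 7.47 ± 1.88 FPKM in WT and 12.1 ± 2.69 FPKM in KO (SD, n = 3 each), 1.62 times as high, with a log2 fold change of 0.66 (standard error 0.24, 95% interval 0.12 to 1.21, adjusted p = 0.261 in limma). Without WT replicate 3 or without KO replicate 2 the groups did not overlap.

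*PLAT*, which encodes tPA, was at 0.154, 3.87 and 0.126 FPKM in the WT and at 0.369, 0.399 and 0.322 FPKM in the KO replicates. WT replicate 2 stood far above every other library, and the other WT lines were below all 3 KO lines. The log2 fold change of -0.49 (95% interval -2.15 to 1.16, adjusted p = 0.738 in limma) turned to 0.43 without this library. The same library also had the highest level of the fibroblast marker *DCN* (15.5 FPKM, against at most 1.66 FPKM elsewhere), of the endothelial marker *CDH5* (4.92 FPKM, against at most 0.128 FPKM), of *TIMP3* (83.9 FPKM, against at most 26.1 FPKM), and also of *COL1A1* (16.7 FPKM), *CD68* (20.4 FPKM) and *CD14* (1.62 FPKM). Its summed level was the highest of the 6 libraries for the fibroblast (33.2 FPKM), leukocyte (23.4 FPKM) and melanocyte markers (2.44 FPKM), and lay below that of WT replicate 3 for the endothelial markers (24.4 against 27.2 FPKM). Other markers of the same lists went other ways. *PTPRC* was lowest in WT replicate 2 (0.0604 FPKM), and *LUM* and *COL1A2* were highest in KO replicate 1 (1.85 and 0.0638 FPKM). These low genes are named outside the rule. *VWF* was highest in WT replicate 3 (27.1 FPKM), and *COL1A1* was almost as high in WT replicate 1 (15.0 FPKM). The part of any of these genes in the *PLAT* value was not tested.

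**Figure D2:**
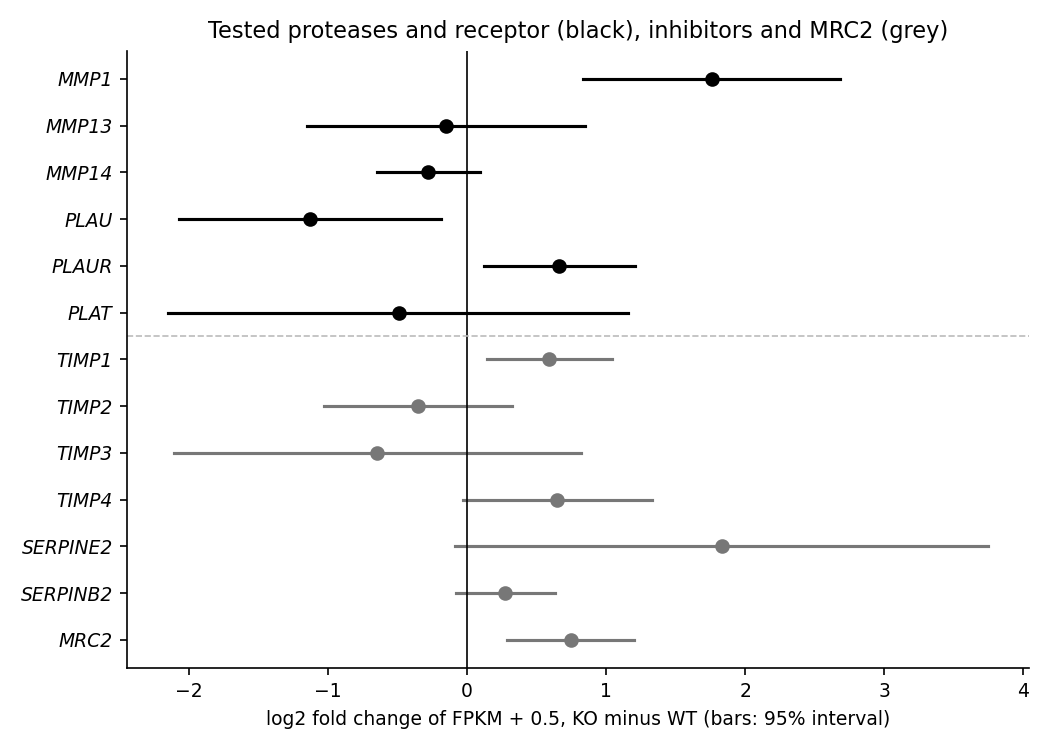
Log2 fold changes of FPKM + 0.5, KO minus WT (horizontal axis), with 95% intervals from limma for the 6 tested genes (black) and for inhibitors and the receptor *MRC2* (grey). The intervals of *MMP1*, *PLAUR*, *TIMP1* and *MRC2* lie above 0 and that of *PLAU* lies below it, before adjustment over the 12241 tested genes.

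Ratios within a library do not depend on any factor that scales a whole library. The ratio of *PLAU* to *PLAUR*, which was chosen after its values were seen and is given without a test, was 8.12, 14.8 and 3.65 in the WT and 2.52, 3.08 and 1.22 in the KO replicates, with every KO line below every WT line. *PLAU* stayed above its receptor in each library, by least in KO replicate 3.

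The summed FPKM of the 6 MMP genes was 1.02 to 2.12 times that of *TIMP1* to *TIMP4* in the WT libraries, and 1.24 to 1.53 times in the KO libraries. WT replicate 2 had the lowest ratio and the other 2 WT lines the highest, of 2.0 and 2.12. The log2 difference of -0.21 had p = 0.6 in a two-sided exact permutation test, the one ratio tested. This ratio follows *MMP14*, and when the genes were weighted equally, as the mean of the log2 FPKM of the tested MMPs minus that of the tested TIMPs, the difference was 0.48 in the opposite direction (exact permutation p = 0.1). That p is the smallest that 3 against 3 libraries can give. The equal weighting leaves out *MMP3*, *MMP9* and *MMP10*, and it includes *TIMP4*, which passed the filter only through its KO level.

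**Figure D3:**
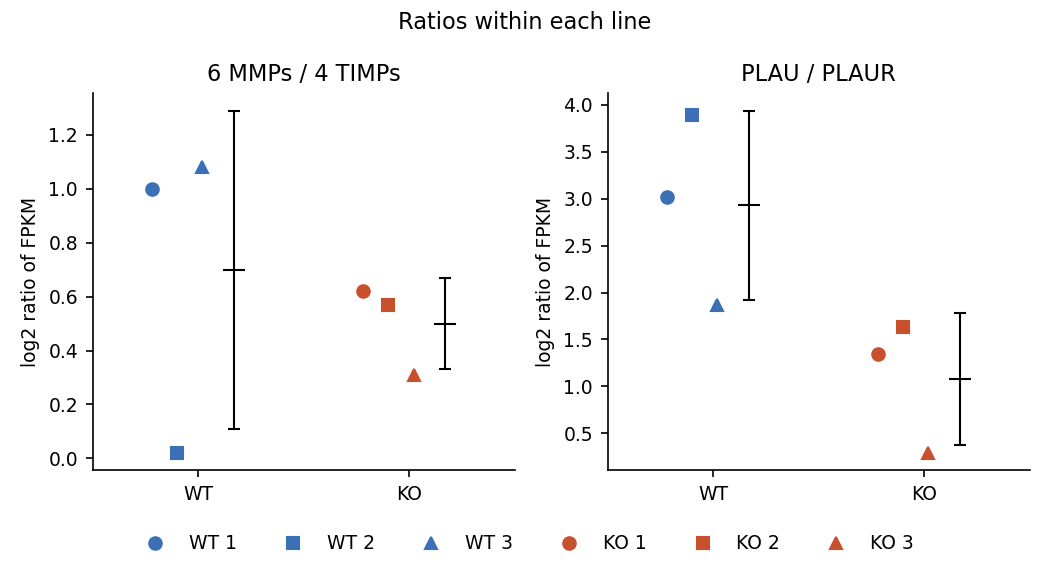
Log2 ratios of FPKM within each line (vertical axes, which do not start at 0) for the summed 6 MMPs over the 4 TIMPs and for *PLAU* over *PLAUR*. Symbols are libraries (shape: replicate number) and black bars the mean ± SD (n = 3). WT and KO overlap in the left panel and do not overlap in the right one.

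Of the inhibitors, the TIMPs block MMPs, and the serpins protease nexin-1 (*SERPINE2*) and PAI-2 (*SERPINB2*) block plasminogen activators. *TIMP1* was at 30.2, 40.7 and 44.2 FPKM in the WT and at 60.7, 47.5 and 65.2 FPKM in the KO replicates, with all KO values above all WT values and a log2 fold change of 0.59 (adjusted p = 0.261 in limma). *TIMP4* also lay higher in all KO lines, at a low level (0.296 to 0.538 FPKM in WT, 0.665 to 1.56 FPKM in KO), whereas *TIMP2* and *TIMP3* overlapped with log2 fold changes of -0.35 and -0.65. Of 4 tested genes of this group 0 were called and 2 had all KO values above all WT values (*TIMP1* and *TIMP4*), where 18.3% of all tested genes did so. *TIMP4* passed the filter only through its KO level, so its place in this count gives no support. The median log2 fold change was 0.12, and -0.35 without *TIMP4*.

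*SERPINB2* was the most abundant serpin of the list, at 130.3 to 165.2 FPKM in WT and 157.6 to 195.4 FPKM in KO. *SERPINE2* varied from 0.155 FPKM in WT replicate 2 to 10.4 FPKM in KO replicate 1, and *SERPINF2*, the gene of the plasmin inhibitor alpha2-antiplasmin, had a log2 fold change of -0.61. None of the 4 tested serpins of the list was called and none separated the groups, where 18.3% of all tested genes lay above and 5.77% below. Of the 4 tested serpins, 3 were higher and 1 lower in mean, with a median log2 fold change of 0.16.

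Of 8 genes for plasminogen, the proteins that bind it and the partners of the uPA receptor, 6 were tested, 0 were called and 2 had all KO values above all WT values, where 18.3% of all tested genes did so. *MRC2*, the gene of the collagen receptor Endo180 that associates with uPA and its receptor, was at 21.7, 14.6 and 13.4 FPKM in the WT and at 26.5, 28.7 and 27.5 FPKM in the KO replicates. The KO lines were close together and all above the WT lines (log2 fold change 0.75, standard error 0.19, adjusted p = 0.261 in limma). *ANXA2* and *S100A10*, which form the annexin A2 complex that binds plasminogen and tPA, were abundant at 1112.5 to 1879.9 and 853.6 to 1411.4 FPKM, with log2 fold changes of 0.33 and 0.38, and *ENO1*, which encodes a glycolytic enzyme that also binds plasminogen at the surface, had 0.68. Plasminogen itself (*PLG*, named outside the rule) was at 0.0105 to 0.135 FPKM over the 6 libraries.

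Of 6 genes for protease activators and inducers, 5 were tested and 0 called, with a median log2 fold change of 0.19. The proprotein convertase genes *FURIN* and *PCSK6* had log2 fold changes of 0.49 and 0.37, *BSG*, whose product EMMPRIN induces MMPs, 0.19, and *ST14*, the gene of the membrane serine protease matriptase, -0.09. Of the 6 genes for matrix receptors and MMP9 partners, 0 were called and the median was -0.11, with *ITGA3* at 0.16, *CD44* at -0.13 and *ITGAV* at -0.11. Of the other 17 MMP genes, 15 had a value above 0 in any library and 5 were tested. Of these 5, 0 were called and 0 separated the groups, where 18.3% of all tested genes lay above and 5.77% below. *MMP12*, which was not tested, did separate the groups and is described below. *MMP28*, the keratinocyte MMP epilysin, had 101.3 to 195.5 FPKM in WT and 105.5 to 156.3 FPKM in KO, and *MMP17* and *MMP25*, the genes of MMPs held by a lipid anchor, had log2 fold changes of 0.24 and -0.13.

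On chromosome 11, 9 MMP genes lie side by side between 102520508 and 102955732 (GRCh38), a span of 435 kb, with no other gene of the tables between them. The 4 neighbouring genes *MMP10*, *MMP1*, *MMP3* and *MMP12*, which take up 104 kb of it, each had all KO values above all WT values, as did 13.6% of all 18570 genes with a value above 0 in any library. The flanking genes *MMP8* and *MMP13* did not, nor did *MMP7* and *MMP20*, and *MMP27* was at 0 in all libraries. *MMP12*, the macrophage elastase, had 3, 4 and 2 fragments in the WT and 7, 13 and 13 fragments in the KO replicates, 3.28 times as many per depth (exact 95% interval 1.54 to 7.80, counting error only). The run of 4 genes and *MMP7*, *MMP8*, *MMP12*, *MMP20* and *MMP27* were chosen after their values were seen, and 3 of the 4 genes in the run were under the filter and rest on few fragments.

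**Figure D4:**
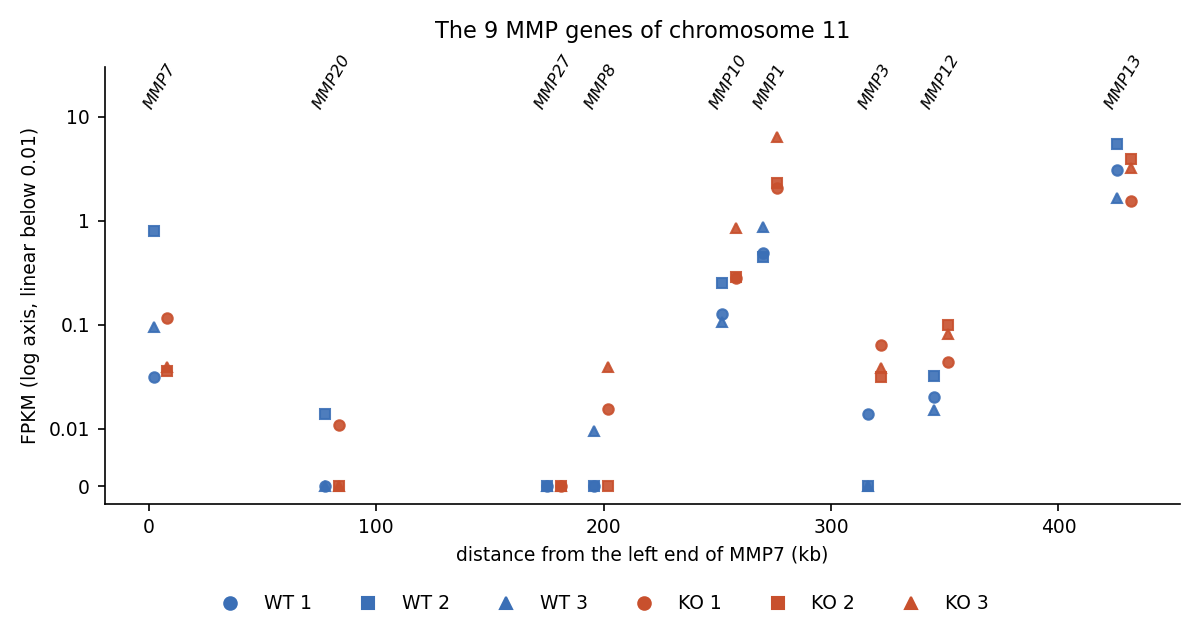
FPKM of the 9 MMP genes of chromosome 11 (vertical axis, logarithmic above 0.01 and linear below) against the distance of the middle of each gene from the left end of *MMP7* in kb. Each symbol is 1 library (blue WT, red KO, shifted sideways for clarity). The red symbols lie above the blue ones at *MMP10*, *MMP1*, *MMP3* and *MMP12*, and overlap with them at *MMP13*.

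The factors whose motifs were searched for above differed among themselves. Of 7 AP-1 subunit genes, 0 were called, 2 had all KO values above all WT values (18.3% of all tested genes did so), and the median log2 fold change was 0.03. *FOSL1* was at 6.25, 6.45 and 8.50 FPKM in the WT and at 19.3, 17.8 and 40.3 FPKM in the KO replicates (log2 fold change 1.71, standard error 0.31, adjusted p = 0.261 in limma). *FOS*, the other separated subunit, had a log2 fold change of 1.51, and those of *JUN* and *FOSL2* were 0.67 and -0.34. Of 6 ETS factor genes, 5 were tested, 0 were called and 2 had all KO values above all WT values, *ETV4* among them (18.3% of all tested genes did so). The median log2 fold change of the tested ETS genes was 0.29. *ETV4* was at 19.7, 9.46 and 25.2 FPKM in the WT and at 41.0, 26.3 and 58.1 FPKM in the KO replicates (log2 fold change 1.22). *ELF3*, an epithelial ETS factor, had 358.1 FPKM in WT replicate 2 and 21.1 FPKM in KO replicate 3, and its log2 fold change was -1.64, and those of *ETV5* and *ETS1* were 0.60 and -0.33.

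The profiles of the 3 genes that varied most over the 6 libraries (*MMP1*, *PLAT* and *PLAU*, with an SD of log2(FPKM + 0.5) of 1.1, 1.05 and 0.85) were set against those of all 12241 tested genes, by the root-mean-square difference of the centred log2 values. This is a description over 6 libraries, which share their cell line and differ in depth. The gene most like *MMP1* was *FOSL1*, at a difference of 0.12, followed by *CAD* (0.15), which encodes an enzyme of pyrimidine synthesis, and *BOP1* (0.19), a gene of ribosome biogenesis. In all 4 genes KO replicate 3 was highest and WT replicates 1 and 2 lowest. Most like *PLAT* were *CHST4* (0.13), *DUSP5* (0.20) and *PADI1* (0.21), which share its high value in WT replicate 2, at 2.56, 7.43 and 17.4 FPKM. Most like *PLAU* were *MAB21L4* (0.13), the stress response gene *DDIT4* (0.16) and the gene ENSG00000274322 (0.18). *DDIT4*, which lies on chromosome 10 like *PLAU*, went from 353 FPKM in WT replicate 2 to 82.5 FPKM in KO replicate 3.

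**Figure D5:**
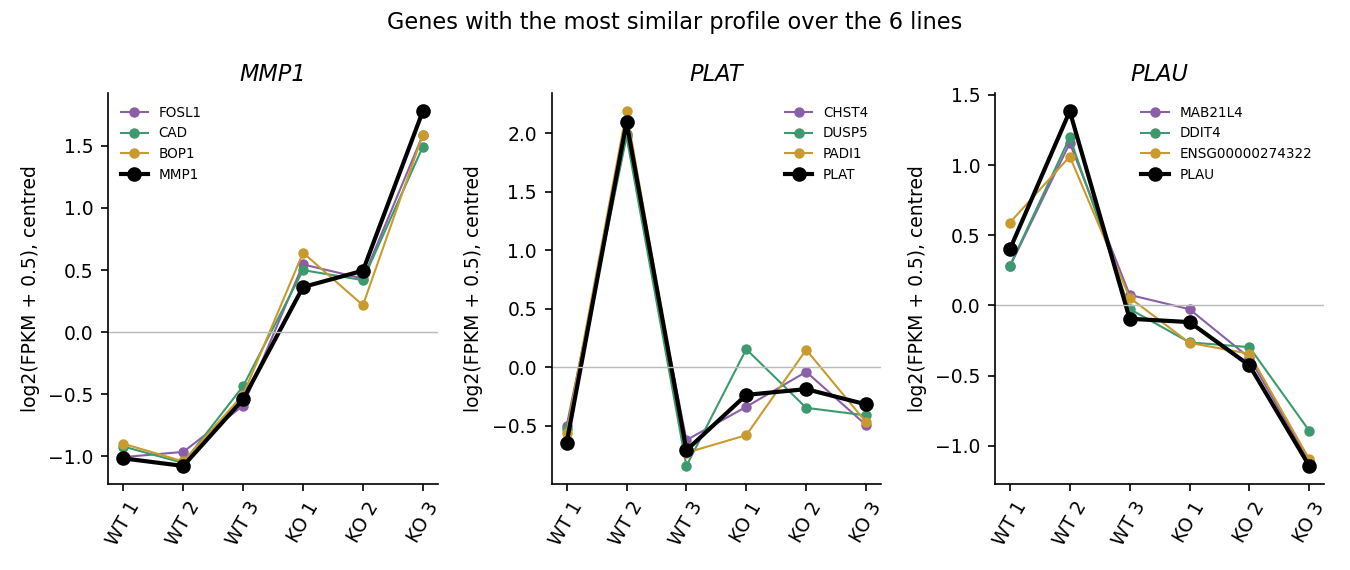
Centred log2(FPKM + 0.5) (vertical axis) of *MMP1*, *PLAT* and *PLAU* (black) and of the 3 tested genes with the most similar profile (coloured) over the 6 libraries. *MMP1* and *FOSL1* have their highest value in KO replicate 3, *PLAT* and *PLAU* theirs in WT replicate 2. Lines join libraries for legibility and imply no order.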

How the data were processed

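RNA of 3 WT and 3 *FGFR2* KO HaCaT lines was sequenced from stranded poly(A) libraries. The authors trimmed reads with fastp 0.20.0, pseudoaligned them with kallisto 0.46.1 to GRCh38 with GENCODE 37, and deposited FPKM per gene; how FPKM was calculated is not given in the sources used here. Positions and symbols came from GENCODE 44. Of 21493 genes, 18 pseudoautosomal Y copies were left out. Fragments were rebuilt with the mean transcript length of a gene. Of 15610 low values of genes with several transcripts, 58.4% were then whole within 0.02 (4% by chance). The deposited values are FPKM, so no count model was used in the main comparison, and the rebuilt fragments were fitted only as an alternative.

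Groups were compared with limma 3.58.1 (R 4.3.3) on log2(FPKM + 0.5), with a mean-variance trend, no covariate and Benjamini-Hochberg adjustment over the 12241 genes that reached 0.5 FPKM on average; the script was tested on simulated data. Alternatives were other pseudocounts, filters and scalings, a replicate block, library weights, voom (on rebuilt fragments) and leaving out each library. Named were the 9 genes, up to 4 genes of each list with a mean of at least 0.5 FPKM by size of log2 fold change, *TIMP1*, *TIMP2*, *SERPINB2*, *FGFR2*, and for 3 genes the 3 most similar profiles. The 9 genes and the lists were chosen with earlier results of these data known. A planned ratio and the gene it needs are not reported here. P-values measure the spread between these lines only.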

Additional observations from a re-analysis of the deposited data

How the results depend on the processing

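Weighting the libraries by quality, which gave WT replicate 1 a weight of 10.3 (the others 0.358 to 1.5), changed the calls: limma called 1396 of the 12241 genes (11.4%) and 2 of the 9 genes, *MMP1* (log2 fold change 1.59, adjusted p = 0.0313) and *PLAUR* (0.91, adjusted p = 0.0346). Under the other 17 alternatives 0 genes were called. Over all 18 alternatives the adjusted p ranged from 0.0313 to 0.576 for *MMP1* and from 0.0346 to 0.635 for *PLAUR*. With no filter on low values, 5 in place of 3 of the 9 genes did not overlap between the groups, since *MMP3* and *MMP10*, not among the 6 tested before, were then counted; of the 18570 genes then compared, 13.6% lay above and 5.32% below in this way. The log2 fold change of *MMP1* was between 1.31 and 2.45 (voom), that of *PLAUR* between 0.54 and 0.91, that of *PLAU* between -1.46 and -0.72 and that of *MMP14* between -0.40 and -0.14. *PLAT* turned to 0.33 with library weights, and without single libraries it ranged from -0.97 to 0.43. *MMP13* ranged from -0.52 to 0.22 without single libraries. The log2 difference of the MMP to TIMP ratio was 0.48 with the mean of log2 values, which gives the tested MMPs equal weight, and ranged from -0.55 to -0.02 without single libraries.

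The labels give no pairing of WT and KO libraries. Deviations of same-numbered libraries from their group means had r of -0.21, 0.22 and 0.05, where other combinations reached from -0.37 to 0.29. Deviations within a group of 3 sum to 0, so these values cannot show whether samples were paired. With the replicate number as a block, 0 genes were called and the adjusted p was 0.0972 for *MMP1* and 0.121 for *PLAU*; the paired log2 difference was -0.21 for the MMP to TIMP ratio. TPM scaling, median-of-ratios scaling and quantile normalization gave a median log2 fold change over all genes of 0.124, 0 and -0.008, against 0.088 as deposited. Depth limits *MMP3*, *MMP10* and *MMP9*, which rest on at most 165 fragments in a library. Counts were also low for *PLAT* outside WT replicate 2 (18 to 65 fragments) and for *MMP1* in the WT libraries (52 to 107 fragments).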
